A study of Mus musculus with 9 samples.

Results

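Class I antigen presentation was followed through 10 genes, chosen by symbol from the gene column of the authors' deposited tables and joined by Ensembl ID to the count files, which list 54838 genes. They are the heavy chain genes H2-K1 and H2-D1, the light chain gene B2m, the peptide transporter genes Tap1 and Tap2, the loading factor gene Tapbp, the immunoproteasome subunit genes Psmb8, Psmb9 and Psmb10, and the trimming peptidase gene Erap1. All 10 passed the filter on low counts in both comparisons below. RNA sequencing covered 9 libraries in 4 groups, each of cells held for 5 h in culture medium: untreated B16F10 (3 libraries), B16F10 with 600 µM hypochlorous acid (HOCl, 3), untreated T cells (2) and T cells with 600 µM HOCl (1). B16F10 is an established melanoma line of C57BL/6 mice, and the T cells were CD8+ cells taken with an isolation kit from spleens of adult C57BL/6 mice. HOCl is the oxidant that neutrophils make with myeloperoxidase.

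Nearly all nucleated cells show peptides of their own proteins on class I molecules, which CD8+ T cells read. The proteasome cuts the proteins, the transporter TAP carries the peptides into the endoplasmic reticulum, ERAP1 trims them there, and tapasin, the product of Tapbp, helps load them onto a heavy chain paired with beta-2 microglobulin. Interferon raises most of these genes and swaps 3 catalytic subunits of the proteasome for inducible ones, Psmb8 for Psmb5, Psmb9 for Psmb6 and Psmb10 for Psmb7. B16 melanoma is known for low class I at its surface, which interferon gamma restores.

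Gene counts came to between 45.9 and 61.3 M for each B16F10 library, to 49.9 and 52.1 M for the untreated T cells and to 12.8 M for the HOCl-treated T cells. The labels do not tie replicates to cultures or mice. The p-values therefore cover library-to-library spread, whether technical or not. No pair within a group agreed within counting noise, with a chi-square per degree of freedom of 3.73 to 23.2 in B16F10 and of 393 between the untreated T cell libraries. All 7 melanocyte markers were present in every B16F10 library and all 8 T cell markers in every T cell library. The 7 melanocyte markers also had counts in untreated T cell replicates 1 and 2, where they summed to 0.406% and 0.103% of their level in untreated B16F10. Their presence alone therefore does not separate the cell types. The 3 libraries described next stood apart. B16F10 HOCl replicate 3 held the T cell markers at 24.6 summed counts per M gene counts (CPM) against 4.42 to 6.02 in the other 5 B16F10 libraries. Untreated B16F10 replicate 1 differed from its group by a chi-square per degree of freedom of 21.2 and 23.2, against 4.48 between the other pair. The T cell HOCl library detected 44225 genes where the other 8 detected between 22855 and 25907, took 37.4% of its counts from mitochondrial transcripts, and held the melanocyte markers at 27.0% of their level in untreated B16F10.

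Of the 10 genes, 7 lie on mouse chromosome 17, in or near the major histocompatibility complex, and 4 of those form 1 cluster of 34.3 kb (GENCODE M21 on GRCm38). Psmb9 (chr17:34181987-34187764) is on the minus strand, and Tap1 (chr17:34187553-34197225), Psmb8 (chr17:34197721-34201454) and Tap2 (chr17:34203527-34216321) follow on the plus strand. H2-K1 is at chr17:33996017-34000347, Tapbp at chr17:33915899-33929292 and H2-D1 at chr17:35262730-35267499. B2m (chr2:122147686-122153083), Psmb10 (chr8:105935735-105938444) and Erap1 (chr13:74639568-74693201) lie elsewhere. The GENCODE spans of Psmb9 and Tap1 overlap head to head by 212 bases, while the RefSeq starts leave 225 bases between them. That interval is shown because both genes start from it, in opposite directions; it is printed on the plus strand of GRCm38.p6, chr17:34187331-34187555, where it held none of the 4 motif forms named below.
Tap1 and Psmb9: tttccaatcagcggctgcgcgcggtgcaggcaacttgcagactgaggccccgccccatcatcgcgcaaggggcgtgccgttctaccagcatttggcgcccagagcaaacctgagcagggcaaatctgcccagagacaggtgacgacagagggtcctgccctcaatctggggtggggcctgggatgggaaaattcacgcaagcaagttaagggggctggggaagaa

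**Figure D1:**
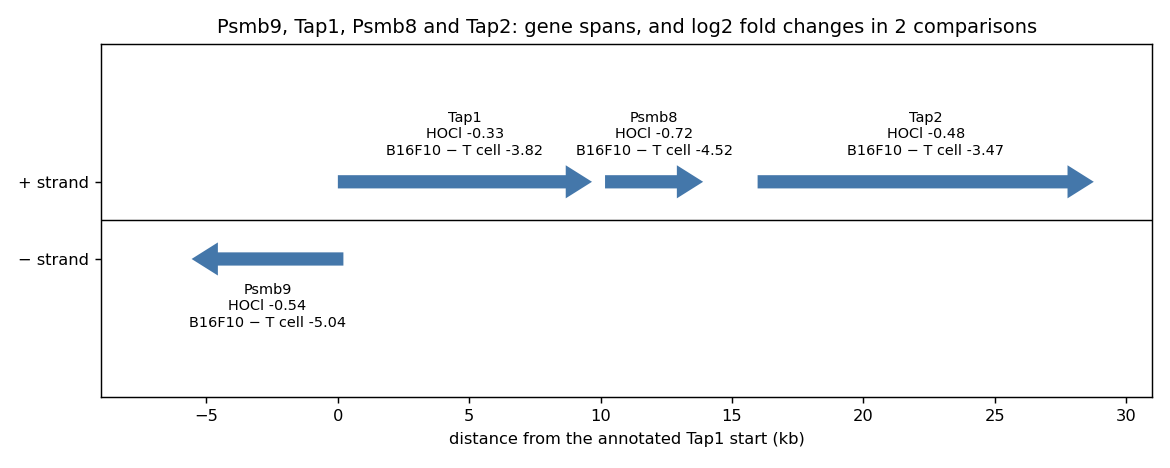
Spans and strands of Psmb9, Tap1, Psmb8 and Tap2 as arrows, by distance in kb from the annotated Tap1 start, with the log2 fold change of HOCl minus untreated in B16F10 and of untreated B16F10 minus untreated T cells. All 4 values are negative in both comparisons, from -0.33 to -0.72 for HOCl and from -3.47 to -5.04 between the cell types.

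RefSeq's table of start sites held 9 of the 10 genes, without Tap2. It was searched, from 250 bases before to 50 after each start and on both strands, for letters of known response elements, chosen after these sequences had been seen. These were GGG, any 2 bases and TTCCC for NF-kB; GAAA, any 2 bases and GAAA, or the shorter GAA, any 2 bases and GAAA, for interferon-stimulated response elements; and TTC, any 3 bases and GAA for the GAS element of interferon gamma responses. No match overlapped another. Of all 32851 starts, 1.75%, 3.44%, 7.52% and 8.3% held these forms. The stretches around the matches are shown for 4 genes, 5′ to 3′ on the gene's own strand, with matches in capitals.
H2-K1: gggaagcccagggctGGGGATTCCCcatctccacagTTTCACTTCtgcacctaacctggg
H2-D1: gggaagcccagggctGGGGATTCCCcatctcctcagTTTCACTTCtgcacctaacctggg
B2m: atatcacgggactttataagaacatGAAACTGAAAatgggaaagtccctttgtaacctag
Psmb8: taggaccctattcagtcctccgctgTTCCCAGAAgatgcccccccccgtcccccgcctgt

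The H2-K1 (chr17:34000414-34000473, minus strand) and H2-D1 (chr17:35262908-35262967, plus strand) stretches carry the NF-kB form and the shorter interferon form at the same spacing. Aligned on the NF-kB form, 59 of 60 bases were identical. B2m (chr2:122147523-122147582, plus strand) holds the longer interferon form, which Erap1 holds across its start, and Psmb8 (chr17:34198073-34198132, plus strand) holds the GAS form. The starts meant here are those of RefSeq. The H2-D1 and Psmb8 stretches and the Erap1 match lie inside the GENCODE spans given above. Tap1, Psmb9, Tapbp and Psmb10 had no match, which says only that these letters are not in those windows.

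In B16F10 given HOCl, Psmb8, Psmb9, Psmb10, Tap1, Tap2 and Tapbp fell, and H2-K1, H2-D1, B2m and Erap1 did not pass the test. The changes of the transporter, tapasin and immunoproteasome genes ran from -16.2% (Tapbp) to -39.3% (Psmb8), and H2-K1 and H2-D1 had log2 fold changes of 0.02 ± 0.05 and 0.07 ± 0.06 (SE). Of the 10 genes, 6 fell and 0 rose (edgeR's quasi-likelihood test, Benjamini-Hochberg adjustment, threshold 0.05), where 13.5% of the 16082 genes tested fell and 14.7% rose (28.3% either way). In 8 of 10, every HOCl library lay below every untreated one, as did 18.4% of all genes tested; in 0 of 10 did every HOCl library lie above, as did 25.2% of all. The median log2 fold change was -0.29 over the 10 genes and -0.01 over all genes tested. These counts describe a list that was known to fall before it was chosen. The count that fell was 3 without HOCl replicate 2, 4 without HOCl replicate 3 and 0 with 8 libraries in 1 fit, and none of the falls passed a test against a 1.5-fold change. In bulk RNA, fewer cells of a kind and less RNA per cell cannot be told apart.

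**Figure D2:**
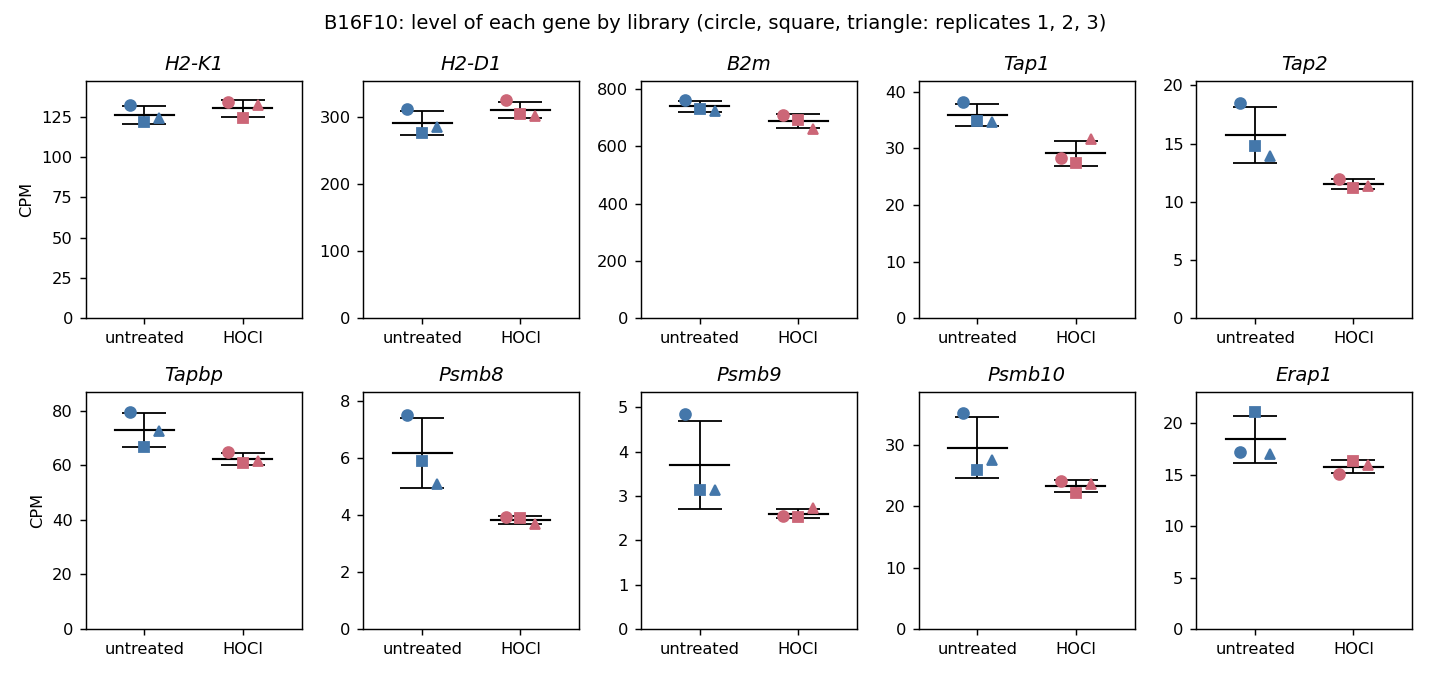
CPM of each of the 10 genes in the 3 untreated and 3 HOCl libraries of B16F10, on linear axes from 0; lines and bars are mean and SD. The ranges overlap for H2-K1 and H2-D1 and are apart for the other 8.

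The immunoproteasome genes gave the largest fall and the least certain one. Psmb8, the inducible chymotrypsin-like subunit, stood at 7.51, 5.90 and 5.10 CPM in untreated replicates 1 to 3 and at 3.94, 3.88 and 3.68 CPM with HOCl. All 3 HOCl libraries were below all untreated ones and close to each other. Its log2 fold change was -0.72 ± 0.15 (SE), a 1.65-fold fall, and edgeR's adjusted p was 0.00333. Leaving out untreated replicate 1 gave a log2 fold change of -0.54. Psmb9, the inducible counterpart of Psmb6, had 4.84, 3.13 and 3.14 CPM untreated and 2.55, 2.53 and 2.73 CPM with HOCl. One untreated library, replicate 1, was far above the other untreated pair. The log2 fold change was -0.54 ± 0.19 and edgeR's adjusted p 0.0499; without untreated replicate 1 they were -0.29 and 0.275, and the call also ended without any 1 HOCl library and without TMM scaling (adjusted p 0.0619 to 0.131). Psmb9 rested on 125 to 297 counts per library and Psmb8 on 189 to 461, the fewest of the 10 genes. Psmb10, the inducible counterpart of Psmb7 and the most abundant of the 3, had 35.2, 25.9 and 27.6 CPM untreated and 24.2, 22.2 and 23.6 CPM with HOCl. The groups did not overlap, with untreated replicate 1 again highest. Its log2 fold change was -0.37 ± 0.10, with an adjusted p of 0.0173 by edgeR, and 0.0737 without HOCl replicate 2. Without untreated replicate 1 the log2 fold change was -0.22, with an adjusted p of 0.0115.

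Both subunits of the peptide transporter fell. Tap1 stood at 38.2, 34.8 and 34.6 CPM untreated and at 28.3, 27.4 and 31.6 CPM with HOCl, the highest HOCl value being that of replicate 3. The groups did not overlap, and the log2 fold change was -0.33 ± 0.07 with an adjusted p of 0.00461 by edgeR. Tap2 had 18.5, 14.8 and 13.9 CPM untreated and 11.98, 11.2 and 11.4 CPM with HOCl. Here too the groups were apart, at -0.48 ± 0.11 and an adjusted p of 0.00518 by edgeR. Tapbp, whose product tethers empty class I molecules to the transporter, had 79.5, 66.8 and 72.5 CPM untreated and 64.8, 60.6 and 61.5 CPM with HOCl. The gap between its groups was narrow, and the log2 fold change of -0.26 ± 0.07 had an adjusted p of 0.0131 by edgeR, 0.0666 without HOCl replicate 2 and 0.0571 without HOCl replicate 3. Psmb8, Tap1 and Tap2 kept an adjusted p of at most 0.0334 without any 1 of the 6 libraries. The falls were smaller without untreated replicate 1, with log2 fold changes of -0.28 for Tap1, -0.34 for Tap2 and -0.18 for Tapbp.

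Erap1, the peptidase that trims peptides in the endoplasmic reticulum, had 17.2, 21.1 and 17.1 CPM untreated and 15.1, 16.3 and 15.99 CPM with HOCl. The groups did not overlap, and the log2 fold change of -0.25 ± 0.09 missed the threshold, with an adjusted p of 0.0551 by edgeR. It passed in 3 of 14 alternatives, among them without untreated replicate 1 (adjusted p 0.00806) and with no filter (0.0168). Without untreated replicate 2, its highest library, the log2 fold change was -0.15 with an adjusted p of 0.221, and without any 1 HOCl library the adjusted p was 0.1001 to 0.176. B2m, the light chain of all class I molecules, was by far the most abundant of the 10, at 762, 732 and 726 CPM untreated and 709.7, 693 and 661 CPM with HOCl. Every HOCl library was lower, by a small step: -0.13 ± 0.05 and an adjusted p of 0.0557 by edgeR. B2m passed in 3 of 14 alternatives, among them DESeq2 (adjusted p 0.0383) and leaving out untreated replicate 1 (0.0215). The adjusted p was 0.113 with library totals and 0.0884 to 0.245 without any 1 HOCl library. In the authors' deposited table for B16F10, whose groups carry no treatment name, B2m likewise had an adjusted p of 0.04, and Psmb9 one of 0.051.

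The heavy chain genes overlapped between the groups. H2-K1, which encodes the K molecule, had 132, 122 and 125 CPM untreated and 134, 124 and 132 CPM with HOCl. H2-D1, which encodes the D molecule, had 311, 276 and 284 CPM untreated and 324, 304 and 302 CPM with HOCl. Untreated replicate 1 was the highest of its group for both, and without it H2-D1 had a log2 fold change of 0.12 and an adjusted p of 0.0118. The adjusted p over all libraries were 0.822 for H2-K1 and 0.421 for H2-D1 by edgeR.

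The sum of the T cell markers was highest in HOCl replicate 3, and the 10 genes were all more abundant in T cells. Of the 8 markers Cd5 was not highest in that library, at 0.156 CPM against 0.163 CPM in untreated replicate 1. Net of the other B16F10 libraries, the 8 markers in HOCl replicate 3 summed to 0.727% of their level in untreated T cells. The same share of the T cell level would be 22.5 CPM of H2-K1, which stood at 132 CPM in that library. For Psmb9 it would be 0.746 CPM (27.4%), for Psmb8 0.874 CPM (23.7%) and for Tap1 3.11 CPM (9.84%), against 1.87% for B2m, each as a share of the gene's value there. Without that library the log2 fold changes were 0.01 for H2-K1, 0.09 for H2-D1, -0.39 for Tap1, -0.69 for Psmb8 and -0.58 for Psmb9. All 8 genes below untreated levels with it were also below without it, and 4 of them passed the test. B cell markers summed to 2.54 to 3.80 CPM and macrophage and dendritic cell markers to 5.16 to 7.06 CPM across the 6 B16F10 libraries. Most of the latter was Cd68, at 4.35 to 6.20 CPM, and Lyz2 had 0.588 to 0.896 CPM. Itgam was at 0 in all 6, and at 0.381 and 0.0384 CPM in the untreated T cells.

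Of 51 further genes of the pathway, in 7 lists by role, 46 were tested, and 11 fell and 4 rose. Over all genes tested 13.5% fell and 14.7% rose, the share beside which this count and those of the lists below stand; the 1 of 7 peptidase genes and 1 of 10 heavy chain genes that fell are near it. Among the other loading chaperones, 2 of 4 fell. Calr, which encodes calreticulin, went from 1775 ± 88.5 to 1434 ± 22.5 CPM (means ± SD of 3 libraries each), and Pdia3, the disulfide isomerase of the loading complex, from 1047 ± 45.0 to 889 ± 9.57 CPM. Of the proteasome's constitutive subunits, assembly factor and activators, 3 of 7 fell. Psme2, a subunit of the interferon-inducible PA28 cap, fell by 0.51 on the log2 scale, from 76.9 ± 10.01 to 55.2 ± 1.69 CPM. Its partner Psme1 fell by 0.24, a call lost without HOCl replicate 2 or 3 (adjusted p 0.0738 and 0.0515). Psmb6, the constitutive counterpart of Psmb9, fell by 0.18 with an adjusted p of 0.0485 by edgeR, which was 0.0808 to 0.162 without untreated replicate 3 or any 1 HOCl library and 0.0504 with DESeq2's size factors. Psmb5 and Psmb7 had -0.15 ± 0.08 and -0.09 ± 0.05, neither past the threshold.

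Of 8 transcriptional regulators, 3 fell and 1 rose. Nlrc5, the transactivator of class I genes, had 14.1, 15.6 and 15.1 CPM untreated and 9.96, 10.3 and 12.8 CPM with HOCl, a log2 fold change of -0.46 ± 0.10 and an adjusted p of 0.00467 by edgeR. Irf1 and Irf9, interferon regulatory factors, fell by 0.33 and 0.35. Rfx5, which binds class I and class II promoters, rose 1.57-fold, from 12.2 ± 2.47 to 19.4 ± 1.63 CPM. Of 7 interferon receptor and kinase genes, 0 fell and 2 rose, Ifnar1 by 0.24 and Jak1 by 0.21, the latter not without HOCl replicate 2 or 3 (adjusted p 0.0723 and 0.0814).

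Of 10 other class I and class I-like heavy chain genes tested, 1 fell, H2-T22, from 36.8 ± 1.33 to 29.8 ± 1.15 CPM. H2-Q6 and H2-Q7, chosen for mention after their values were seen, had 0.36 to 0.94 CPM in 5 B16F10 libraries and 5.41 and 4.73 CPM in HOCl replicate 3, against means of 924 and 1108 CPM in untreated T cells. At 0.727% of the T cell level they would stand at 6.71 and 8.05 CPM. Of 7 peptidase genes, 1 fell, Thop1, a cytosolic peptidase, by 0.29. Of 7 class II presentation genes 3 were tested: H2-DMb1 fell by 0.37, a call lost without HOCl replicate 2 (adjusted p 0.0754), and H2-DMa rose from 0.629 ± 0.0544 to 1.24 ± 0.151 CPM, with an adjusted p of 0.0584 without HOCl replicate 3.

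**Figure D3:**
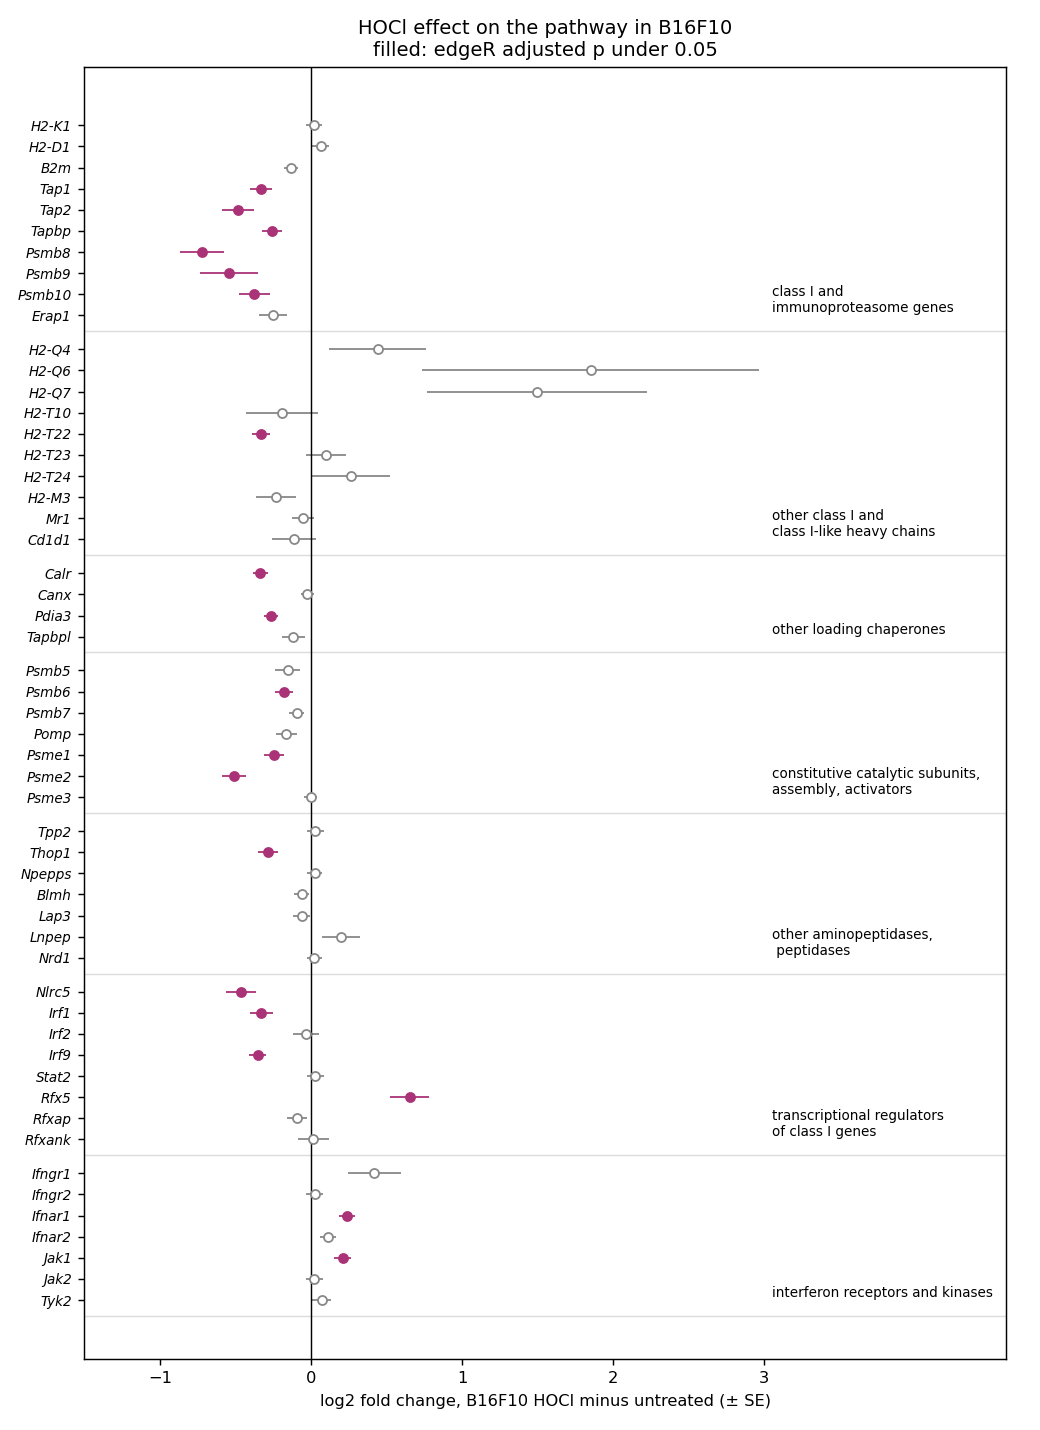
Log2 fold change of HOCl minus untreated in B16F10 with its SE, for the 10 genes and the tested genes of 6 further lists; filled points had an edgeR adjusted p under 0.05. Psmb8 lies lowest at -0.72, and the open points of H2-Q6 and H2-Q7 have the widest bars.

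The share of inducible subunits was measured inside each library as the ratio of counts per kb of exon, which needs no scaling between libraries. The level of a ratio rests on the annotated exon lengths, which hold all isoforms; a change in it does not. Psmb8 to Psmb5 was 0.0151, 0.0149 and 0.0122 in untreated B16F10 and 0.00944, 0.00934 and 0.00998 with HOCl, a change of -31.6%. Psmb9 to Psmb6 was 0.0133, 0.0101 and 0.00973 untreated and 0.00827, 0.00855 and 0.00931 with HOCl, a change of -20.5%. Neither pair of groups overlapped, and both had an exact two-sided permutation p of 0.1, the smallest that 3 against 3 allows (0.15 adjusted over the 3 ratios). Psmb10 to Psmb7 was 0.631, 0.458 and 0.505 untreated and 0.441, 0.411 and 0.464 with HOCl, groups that overlapped (exact permutation p 0.2). Without untreated replicate 1 the log2 change of Psmb9 to Psmb6 went from -0.33 to -0.19 and that of Psmb10 to Psmb7 from -0.26 to -0.13. In untreated T cells the ratios were 1.32 and 0.523 for Psmb8 to Psmb5, 0.697 and 0.548 for Psmb9 to Psmb6, and 5.00 and 5.88 for Psmb10 to Psmb7. Their means were 65.5, 56.3 and 10.2 times those of untreated B16F10.

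**Figure D4:**
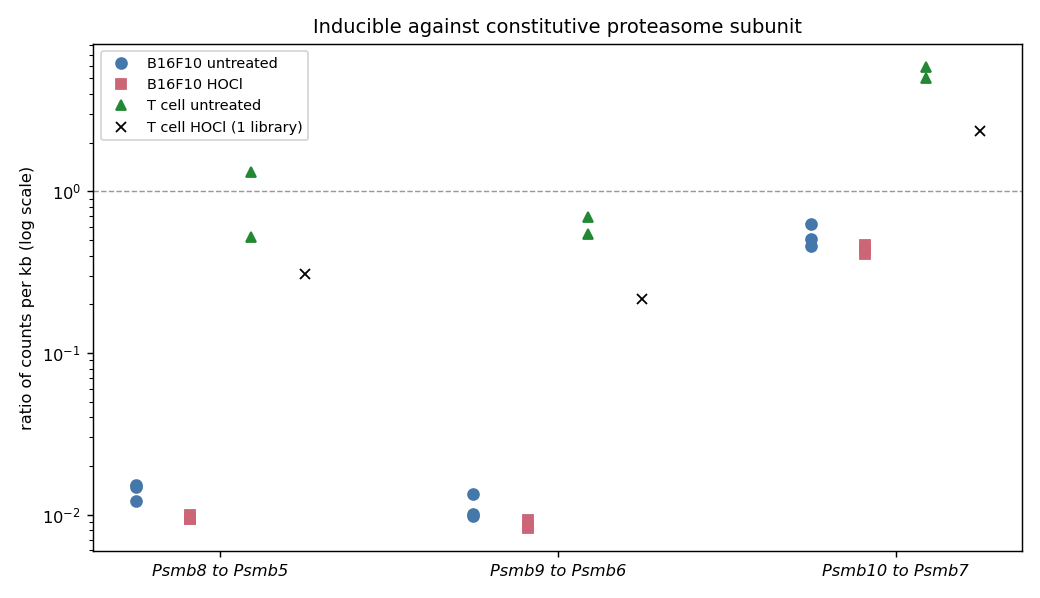
Ratio of inducible to constitutive subunit, in counts per kb of exon on a log axis, for each library of the 4 groups; the dashed line marks equal levels. B16F10 libraries lie near 0.01 for Psmb8 and Psmb9 and near 0.5 for Psmb10, far below untreated T cells.

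Without HOCl, the melanoma cells held all 10 genes at a lower level than the T cells, and most strongly the immunoproteasome pair Psmb8 and Psmb9, the transporter and H2-K1. All 10 passed edgeR's quasi-likelihood test, where 35.4% of 18352 genes tested were lower in B16F10 and 35.8% higher (71.1% either way). All 10 also passed a test against a 2-fold change, as did 23.8% of all genes tested in that direction. The median log2 fold change of B16F10 minus T cells was -3.31 over the 10 genes and -0.02 over all genes tested. Library totals in place of TMM moved the median of all genes to 0.22, a shift of the scale and not of the order. Each of the 10 was lower in B16F10 and past the threshold in 13 of 13 alternatives, with adjusted p of at most 0.0215.

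The differences spanned a wide range. Psmb9 was 33.0-fold lower, at a mean of 3.70 ± 0.986 CPM (SD, n = 3) against 89.4 and 116 CPM in the T cell libraries. H2-K1 was 28.8-fold lower, at 126 ± 5.39 CPM against 3799 and 2397 CPM. Psmb8 was 22.95-fold lower, at 6.17 ± 1.23 CPM against 135 and 105 CPM. These 3 genes lay far below either T cell library, although T cell replicate 1 exceeded replicate 2 for H2-K1 and Psmb8 and not for Psmb9. Tap1 was 14.1-fold lower, at 35.9 ± 2.01 CPM against 444 and 412 CPM, and Tap2 11.1-fold, at 15.7 ± 2.43 CPM against 169 and 127 CPM. H2-D1 was 8.90-fold lower, at 291 ± 18.4 CPM against 2469 and 1913 CPM. The 2 heavy chain genes thus stood in opposite order in the cell types, with H2-D1 the higher in B16F10 and H2-K1 the higher in both T cell libraries. The smaller differences were those of Erap1 (4.81-fold, 88.2 and 62.5 CPM in T cells), Tapbp (3.72-fold, 298 and 165 CPM), Psmb10 (2.90-fold, 67.4 and 76.8 CPM) and B2m (2.74-fold, 1670.4 and 1736 CPM). The log2 fold changes of all 10, with SE from 0.15 to 0.29, ran from -1.45 to -5.04, and the largest adjusted p was 0.000949 by edgeR.

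Levels of different genes were compared per kb of exon. In untreated B16F10, B2m led at 860.3 ± 22.8 CPM per kb, ahead of H2-D1 at 113 ± 7.15 and H2-K1 at 42.9 ± 1.83. Tapbp and Psmb10 followed at 20.1 ± 1.75 and 17.3 ± 2.89 CPM per kb, the only neighbours whose libraries overlapped. Tap1 (6.55 ± 0.367), Tap2 (4.16 ± 0.644), Erap1 (2.54 ± 0.312), Psmb8 (1.83 ± 0.364) and Psmb9 (1.01 ± 0.269) came last, in CPM per kb. With HOCl the order was the same and no neighbours overlapped. In untreated T cells B2m also led, at 1980.2 ± 53.6 CPM per kb (SD, n = 2), and Erap1 was last at 10.4 ± 2.50. The 2 heavy chain genes (1054 ± 338 and 849.5 ± 153) overlapped each other there, as did Tap1 with Tapbp, and Psmb10, Tap2, Psmb8 and Psmb9 each with the next, at 42.3 ± 3.87 down to 28.1 ± 5.16 CPM per kb.

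**Figure D5:**
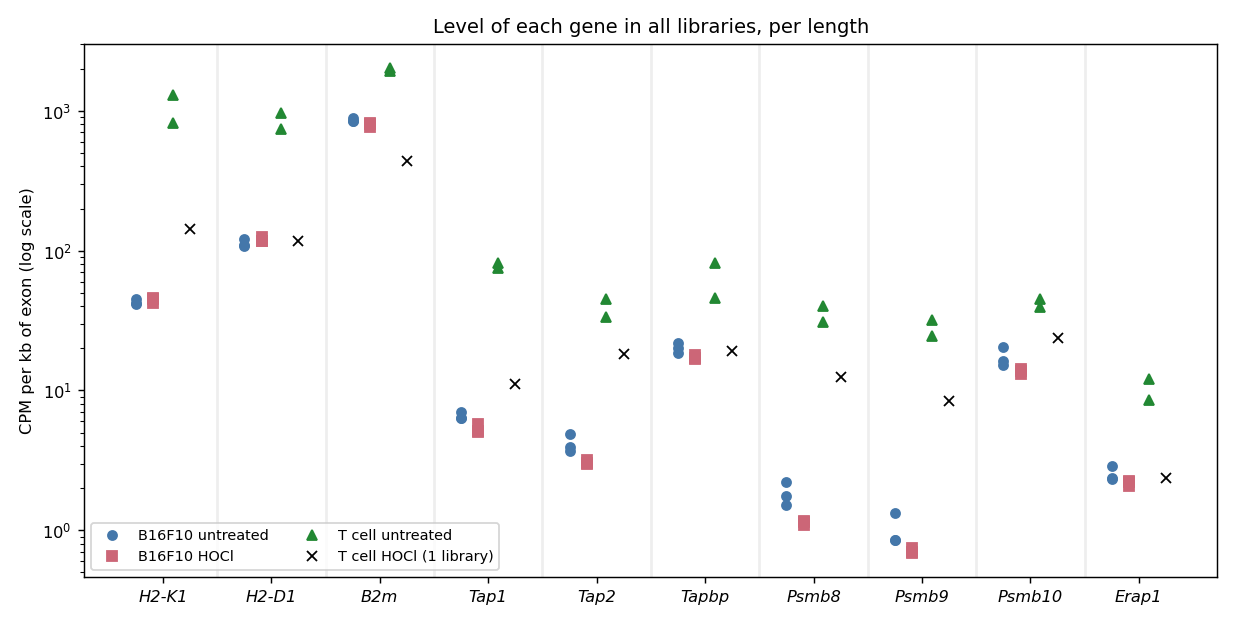
Level of the 10 genes in every library in CPM per kb of exon on a log axis, by group. Untreated T cells lie above both B16F10 groups for all 10. The T cell HOCl group is a single library that was given no test.

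Around the 10 genes, 33 of 51 further pathway genes were lower in B16F10 than in T cells and 11 higher, where over all genes tested 35.4% were lower and 35.8% higher (71.1% either way). Of the other class I and class I-like heavy chains, 10 of 11 were lower, among them H2-T23 (5.14 ± 0.798 against 243 and 221 CPM) and H2-Q6 (0.57 ± 0.155 against 1120 and 728 CPM). All 7 interferon receptor and kinase genes were lower, although Ifngr2 and Tyk2 lost their calls when 1 library was left out (largest adjusted p 0.111 and 0.0649, both without untreated B16F10 replicate 1). Among the 7 were Ifngr1, a chain of the interferon gamma receptor, at 16.6 ± 0.121 against 806 and 1367 CPM, and Jak2, a kinase bound to that receptor, at 43.8 ± 1.26 against 195 and 176 CPM. Of the regulators 5 of 8 were lower and 0 higher. Irf1 was 8.43-fold and Irf2 10.9-fold lower, and Nlrc5 stood at 14.9 ± 0.749 against 290.2 and 74.1 CPM, a wide gap between the T cell libraries.

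Of 4 other loading chaperones 3 were higher in B16F10 and 1 lower. Of 7 constitutive proteasome, assembly and activator genes 4 were higher and 2 lower. These counts, and that of the class II genes below, stand beside 35.8% higher and 35.4% lower over all genes tested (71.1% either way). Calr, Canx and Pdia3 were higher in B16F10, Canx, the chaperone calnexin, 3.86-fold and Pdia3 3.31-fold, while Tapbpl, a tapasin-related editor, was 6.04-fold lower. Psmb7 was 3.54-fold higher and Psmb5 2.39-fold, the latter losing its call without any 1 B16F10 library (adjusted p 0.0503 to 0.101). Psmb6 had a log2 fold change of 0.70 ± 0.27 and an adjusted p of 0.0593 by edgeR. Psme3, of the nuclear activator cap, was 2.05-fold higher, and Psme1 and Psme2 2.57-fold and 1.84-fold lower. Among peptidases Thop1 (22.2-fold) and Lap3 (8.35-fold) were higher and Lnpep (6.92-fold) and Npepps (1.66-fold) lower. Of the class II genes 6 of 7 were lower in B16F10, among them Cd74 at 0.236 ± 0.0986 against 37.9 and 50.4 CPM, and H2-DMb1 was higher. Next to these class II genes, B cell markers summed to 20.5 and 29.3 CPM in the untreated T cell libraries and T cell markers to 2700 and 2610 CPM; the part of other spleen cells in the T cell values was not tested.

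The T cell HOCl library was a single one and was given no test. Values of the 10 genes are listed without a count of those below the untreated libraries, since that share was not counted over all genes. They do not set the 10 genes apart from other genes. Mitochondrial transcripts took 37.4% of this library's counts. H2-K1 was at 417 CPM, 13.5% of the untreated mean, H2-D1 at 304 CPM (13.9%) and Tap1 at 60.6 CPM (14.1%). B2m (377 CPM), Erap1 (17.3 CPM), Psmb9 (30.98 CPM), Tapbp (69.98 CPM), Psmb8 (42.3 CPM) and Tap2 (68.5 CPM) were at 22.2% to 46.2%, and Psmb10 at 40.2 CPM was at 55.7%. The T cell markers summed there to 19.8% of their untreated level and the melanocyte markers to 27.0% of their level in untreated B16F10. That share of the B16F10 level would be 199.7 CPM of B2m, 78.5 CPM of H2-D1, 34.1 CPM of H2-K1 and 1.67 CPM of Psmb8. B cell, macrophage and dendritic cell, and erythroid markers summed to 132, 75.97 and 29.9 CPM, each above both untreated T cell libraries. The part of this makeup in the values of the 10 genes was not tested.

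Some reads of these genes may not be assignable. Of all 50-base windows of their GENCODE transcripts, 9.63% for H2-K1 and 12.8% for H2-D1 also occur in transcripts of another gene, most often H2-Q10 and H2-Q1, and 0.957% and 3.59% of 100-base windows do. For Tap1, Tap2, Tapbp, Psmb8, Psmb9 and Erap1, 3.33% to 23.2% of 50-base windows were shared. The gene sharing most was, in that order, Psmb9, Gm15821, Gm19412, Gm20496, Tap1 and Cast. Of these pairs, only the positions of Psmb9 and Tap1 were compared. B2m and Psmb10 had no shared windows. Read length, strand setting and the handling of such reads are not given in these sources.

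Over the 6 B16F10 libraries, the 10 genes' mean log2 CPM, centred per gene, was 0.29, 0.07 and 0.04 in untreated replicates 1 to 3 and -0.11, -0.16 and -0.12 with HOCl. Among 1631 other genes of at least 10 CPM that varied by an SD of at least 0.2, the 5 most like this profile were Nubpl, Tmem107, Mrpl18, Anp32a and Abhd8, with Pearson's r from 0.989 to 0.996. All 5 fell with HOCl, by 0.37 to 0.52 on the log2 scale, a direction fixed by choosing genes for likeness to a falling profile. The likeness rests on 6 points that share the step between the groups and the high untreated replicate 1.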

How the data were processed

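Raw read counts per gene, not normalised, were deposited by the authors for 9 libraries. They used STAR 2.7.1a and featureCounts 1.6.0 on build mm10 along with DESeq2 1.22.2 and FastQC 0.11.8, as named without roles in the submitters' processing notes. The authors' deposited tables also give a log2 fold change and an adjusted p-value per gene, between groups without treatment names. Members and lists were chosen with earlier results of these data known. Genes kept by filterByExpr were tested with edgeR 4.0.16 (R 4.3.3): TMM scaling, robust quasi-likelihood F test, Benjamini-Hochberg adjustment over all genes tested, each comparison fitted on its own libraries, with 4 and 3 residual degrees of freedom. SE is the log2 fold change over F's square root. CPM is per M gene counts. A count of 0 allows up to 3 counts, which is 0.0489 to 0.0654 CPM, or 0.234 CPM for HOCl-treated T cells (counting error only). Exon lengths are GENCODE M21's merged exons; promoters are RefSeq's, GRCm38.p6. Named genes were the 10 members, 9 fixed pathway genes and up to 2 per list and direction with the smallest adjusted p. An item of the regulator list is not reported here. The edgeR code was tested on simulated data. Alternatives are given in the closing section.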

Additional observations from a re-analysis of the deposited data

Results flagged for a closer look

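T cell markers appeared in 1 melanoma library, where no comparison of the study looks for them. In B16F10 HOCl replicate 3 the 8 markers summed to 0.925% of the mean of untreated T cells, against 0.166% to 0.227% in the other 5 B16F10 libraries, most of which was Lck. Cd8a stood at 3.04 CPM there and at 0.190 to 0.305 CPM in the others. Cd5, at 0.156 CPM in HOCl replicate 3, was not highest there, with 0.163 CPM in untreated replicate 1. The source of these reads was not tested.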

How the results depend on the processing

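In B16F10, the number of the 10 genes that fell with HOCl was 6. It was 5 to 8 under DESeq2's size factors, library totals, no filter, a stricter filter, DESeq2 and the replicate block. It was 0 with 8 libraries in 1 fit, whose spread the T cell libraries set in part, and 0 against a 1.5-fold change. Leaving out 1 library gave 3 to 7 lower and 0 to 1 higher; 3 was without HOCl replicate 2, and the 1 higher was H2-D1 without untreated replicate 1. H2-K1 turned to -0.00502 without untreated replicate 2 and to -0.00264 without HOCl replicate 1, within a range of up to 0.0592; it was not called in any setting. Of the 51 further genes, 11 fell and 4 rose; with 8 libraries in 1 fit 0 and 0 did, against a 1.5-fold change 0 and 0, and leaving out 1 library gave 8 to 11 and 2 to 4, the 2 without HOCl replicate 3. The cause of these losses was not tested. Against T cells the 10 genes were lower in all settings; of the further genes 33 were lower and 11 higher, 7 higher against a 2-fold change, and 31 to 34 lower and 9 to 15 higher without 1 library. The log2 change of Psmb8 to Psmb5 was -0.55, of Psmb9 to Psmb6 -0.33 and of Psmb10 to Psmb7 -0.26, and ran from -0.65 to -0.49, -0.42 to -0.19 and -0.37 to -0.13 without 1 library, the smallest changes being those without untreated replicate 1. Deviations of same-numbered B16F10 libraries correlated at 0.035, -0.0035 and 0.0015. With 3 libraries in each group, these values do not settle whether the replicate number pairs the libraries. With the number as a block, 8 of the 10 genes fell, B2m (adjusted p 0.0324) and Erap1 (0.0208) being added. Over all genes tested in B16F10, 2366 rose and 2178 fell; with 8 libraries in 1 fit 29 and 38 did, against a 1.5-fold change 28 and 45, and without HOCl replicate 3, 1605 and 1410.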
